A study of Mus musculus with 6 samples.

Results

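Aldehydes, ketones and epoxides formed from lipids, amino acids and foreign compounds are made harmless by a small number of enzyme families, and 10 mouse genes of these families are described here in fibroblasts that lack the histone variant H2AX. The 10 genes were taken by name: Adh7, Aldh2, Aldh3a1, Aldh3a2, Aldh7a1, Akr1b3, Akr1b8, Cbr3, Ptgr1 and Ephx1. A gene was read from the probe set that the array annotation gives to that symbol alone, and each was matched by 1 probe set except Akr1b3, the mouse aldose reductase gene, which had none and is not analysed here. Thus 9 of 10 enzymes were measured, among 19938 genes in all.

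RNA came from H2AX knockout mouse embryonic fibroblasts (H2AX KO, genotype label H2A.X Knockout) and from wild-type fibroblasts (WT, genotype label H2AX. WT), with 3 Affymetrix arrays of each. Both kinds of cell were derived from mice, grown in the same serum-containing medium, and received no treatment. The sources used here do not give the sex, age, strain, passage or number of embryos behind either culture, and p-values therefore speak only to variation among these particular arrays, which may be technical. Values are on the log2 scale as deposited, where a difference of 1 is a 2-fold change, and each log2 difference is H2AX KO minus WT, with its standard error (SE) from the limma fit where one is given.

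Adh7 oxidizes alcohols such as ethanol and retinol to aldehydes, and aldehyde dehydrogenases (Aldh genes) oxidize aldehydes further to acids. Aldo-keto reductases (Akr genes) and carbonyl reductases (Cbr genes) work in the other direction and reduce aldehydes and ketones to alcohols with NADPH. Ptgr1 removes the reactive double bond of alkenals such as hydroxynonenal, a product of lipid peroxidation, and Ephx1 opens epoxides with water. Several genes of these families are known to be transcribed under NRF2, the factor at the centre of the study of these cells.

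The arrays were checked first for their labels and for other cell types. H2ax had log2 values of 7.69, 7.77 and 7.67 on the H2AX KO arrays, against 8.96 to 9.18 on the WT arrays, a log2 difference of -1.34 ± 0.07 (SE; limma, adjusted p = 5.8e-07). Whether its probes fall inside the deleted sequence is not stated, so that a remaining signal checks nothing further. The mean over 12 fibroblast markers lay between 10.31 and 10.33 on H2AX KO arrays and between 10.01 and 10.11 on WT arrays, with 5 of the 12 higher and 5 lower in H2AX KO cells (83.3% called, against 33.4% of all genes). These changes were large for some markers and went both ways, with Thy1 16.3-fold and Pdgfrb 3.26-fold higher, and Dcn 4.42-fold and Twist2 3.23-fold lower. The mean over 10 epithelial markers lay between 5.47 and 5.58 on H2AX KO arrays and between 5.42 and 5.46 on WT arrays. Of these epithelial markers 1 was higher in H2AX KO cells and none was lower, with 2 of 9 macrophage and leukocyte markers and 1 of 5 endothelial markers also past the test. The part of other cell types in the results below was not tested. The Y-linked gene Eif2s3y was at 3.92 to 4.23 on H2AX KO arrays and at 8.03 to 8.12 on WT arrays, and Kdm5d and Uty were lower in H2AX KO cells too, so that H2AX status and the presence of Y-linked transcripts cannot be told apart in this comparison.

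Of the 9 enzymes, 4 were higher and 3 were lower in H2AX KO cells at an adjusted p under 0.05 (limma, adjusted over all genes), and 2 did not pass. Over all genes tested, 33.4% passed in either direction, 18.4% were higher and 15.0% were lower. These shares include genes low on the array scale, whereas all of the 9 enzymes but Cbr3 and Aldh3a1 were in the brighter 50% of genes. With the dimmer 50% dropped, 3095 genes were higher and 2399 lower, a larger share than over all genes. Most of the genes kept were thus called, and of the enzymes kept 3 were higher and 3 lower. Among all 9 enzymes, the higher ones were Adh7, Aldh7a1, Ephx1 and Cbr3, and the lower ones were Akr1b8, Aldh3a2 and Ptgr1. The 7 enzymes that passed also had no overlap between the 3 H2AX KO and the 3 WT arrays, as had 44.8% of all genes. Adh7 and Aldh7a1 changed more than 2-fold, as did 5.30% of all genes at the same adjusted p. The median log2 difference of the 9 enzymes was 0.08 and that of all genes was 0.02. The median size of the change regardless of direction was 0.51 for the enzymes and 0.13 for all genes, again with low genes included. The enzymes were chosen with earlier results of these data known. Their counts and sizes of change beside those of all genes are therefore not a test of the group. In bulk RNA of this kind, fewer cells expressing a gene and less of its RNA per cell cannot be told apart. Precision is limited by the number of arrays, and with 3 arrays per genotype the smallest two-sided p of an exact permutation is 0.10.

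**Figure D1:**
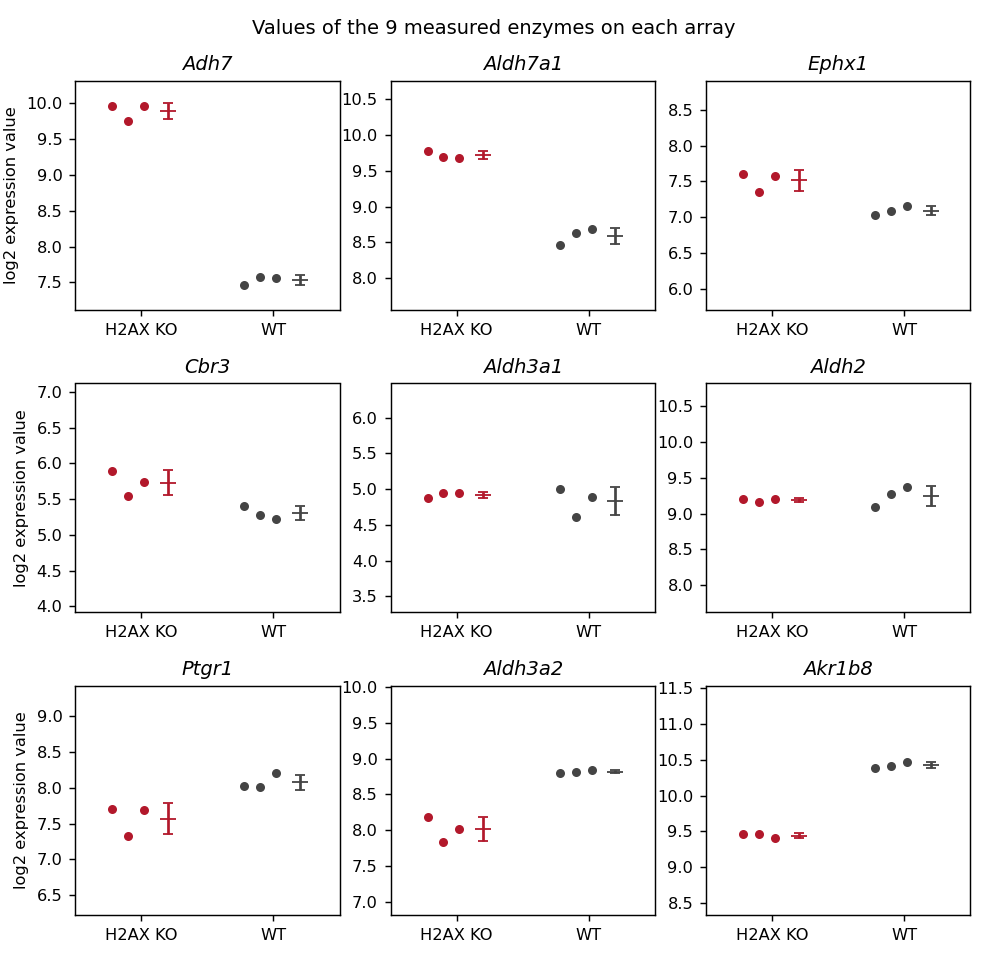
Log2 expression value (y axis, spanning the same range in each panel) of the 9 measured enzymes on 3 H2AX KO arrays (red, left) and 3 WT arrays (grey, right), with the mean and SD beside the points. The points of the genotypes are apart for 7 enzymes, with H2AX KO above WT for Adh7, Aldh7a1, Ephx1 and Cbr3 and below it for Ptgr1, Aldh3a2 and Akr1b8, and they overlap for Aldh3a1 and Aldh2.

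To set sequences of enzymes that moved in opposite directions side by side, the 120 bases before the start site are given for Adh7 and Cbr3, which were higher, and for Akr1b8 and Aldh3a2, which were lower. They are RefSeq sequences of assembly GRCm38.p6, written 5′ to 3′ along the strand of the gene, at chr3:138217653-138217772 (plus strand) for Adh7, chr16:93683099-93683218 (plus strand) for Cbr3, chr6:34354026-34354145 (plus strand) for Akr1b8 and chr11:61267187-61267306 (minus strand) for Aldh3a2. Capitals mark TGANTCA in Adh7, GGGCGG in the other genes, and GCGTG in Akr1b8 and Aldh3a2.
Adh7: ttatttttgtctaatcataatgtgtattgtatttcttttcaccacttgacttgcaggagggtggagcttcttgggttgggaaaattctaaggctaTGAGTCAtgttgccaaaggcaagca
Cbr3: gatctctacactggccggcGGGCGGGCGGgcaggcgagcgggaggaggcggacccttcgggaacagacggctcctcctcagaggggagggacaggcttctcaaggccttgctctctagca
Akr1b8: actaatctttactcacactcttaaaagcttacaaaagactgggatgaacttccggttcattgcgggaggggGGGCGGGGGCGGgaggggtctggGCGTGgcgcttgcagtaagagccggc
Aldh3a2: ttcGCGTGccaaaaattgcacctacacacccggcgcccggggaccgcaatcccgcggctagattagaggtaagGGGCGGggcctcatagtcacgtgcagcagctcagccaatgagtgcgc

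The RefSeq table held a promoter window, from 250 bases before to 50 bases after the start, for 6 of the 10 enzymes (the 4 above, Ephx1 and Ptgr1). Each window was searched on both strands for 4 motifs. The core of the antioxidant response element to which NRF2 binds, TGACNNNGC, was found in none of the 6 windows and in 12.4% of all 32851 windows in the table. The AP-1 motif TGANTCA was found in the Adh7 window alone, 25 bases before the start, and in 7.81% of all windows. The antioxidant response element core can itself contain this AP-1 motif, but the core was not found in the Adh7 window. The GC box GGGCGG was found in 5 of the 6 windows, all but that of Adh7, and in 35.7% of all windows, where the matches of Cbr3 overlap each other and those of Akr1b8 adjoin. The core of the dioxin response element, GCGTG, was found in 3 of the 6 (Akr1b8, Aldh3a2 and, after the start and so not printed, Adh7) and in 32.4% of all windows. Adh7 also had the lowest GC content of the 6 windows, at 39.3%, against a median of 52.7% over all windows, and 3 CG pairs, against a median of 7. The windows of Aldh3a2 and Cbr3, which moved in opposite directions, were both rich in CG pairs, with 21 and 19. These matches describe the letters in each window and say nothing of binding.

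The largest change among the enzymes was in Adh7, the class of alcohol dehydrogenase best known from the stomach lining and from retinol oxidation. It had log2 values of 9.96, 9.76 and 9.96 on the H2AX KO arrays, against 7.46, 7.58 and 7.56 on the WT arrays. Each H2AX KO array was more than 2 units above each WT array, and the arrays of a genotype lay close together. Means were 9.89 ± 0.11 (SD, n = 3) in H2AX KO cells and 7.54 ± 0.07 (SD, n = 3) in WT cells, a log2 difference of 2.36 ± 0.08 (SE; limma, adjusted p = 1.3e-08) or 5.13-fold. Ranked by the size of the rise, Adh7 was number 69 of the 19938 genes.

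Of the 4 measured aldehyde dehydrogenases, 1 rose, 1 fell and 2 did not pass. Aldh7a1 (antiquitin), which oxidizes the semialdehyde formed in lysine breakdown, had log2 values of 9.78, 9.69 and 9.68 on H2AX KO arrays, against 8.47, 8.63 and 8.68 on WT arrays. The lowest H2AX KO array was well above the highest WT array. The log2 difference was thus 1.12 ± 0.07 (SE; limma, adjusted p = 1.7e-06), or 2.18-fold. Aldh3a2, the fatty aldehyde dehydrogenase of the endoplasmic reticulum, had log2 values of 8.18, 7.84 and 8.02 on H2AX KO arrays, against 8.80, 8.82 and 8.84 on WT arrays. WT arrays were nearly equal and all above the H2AX KO arrays, which were more spread. Its log2 difference was -0.81 ± 0.09 (SE; limma, adjusted p = 5.8e-05), or 1.75-fold lower.

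Aldh2, the mitochondrial enzyme that oxidizes acetaldehyde, had log2 values of 9.21, 9.16 and 9.20 on H2AX KO arrays, against 9.10, 9.27 and 9.38 on WT arrays. The H2AX KO values fell inside the WT range. Its log2 difference was -0.06, with a 95% interval from -0.24 to 0.12 (limma, adjusted p = 0.64), and it turned to 0.01 without WT replicate 3. Aldh3a1, known as an abundant protein of the cornea, had log2 values of 4.87, 4.94 and 4.95 on H2AX KO arrays, against 5.00, 4.61 and 4.89 on WT arrays. The groups overlapped, and WT replicate 2 was the lowest array. Its log2 difference was 0.08, with a 95% interval from -0.14 to 0.30 (limma, adjusted p = 0.59), and it turned to -0.03 without WT replicate 2. Aldh3a1 lay low on the array scale, with 22.6% of genes at a lower mean.

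Among the reductases, Akr1b8 and Ptgr1 were lower and Cbr3 was higher in H2AX KO cells. Akr1b8, an aldo-keto reductase first found as a gene induced in fibroblasts by a growth factor, had log2 values of 9.46, 9.46 and 9.40 on H2AX KO arrays, against 10.38, 10.42 and 10.47 on WT arrays. Both genotypes were tight, with SDs of 0.03 and 0.04, and apart from each other. The log2 difference was -0.98 ± 0.06 (SE; limma, adjusted p = 1.1e-06), or 1.98-fold lower, which fell just short of a 2-fold change.

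Ptgr1, which reduces alkenals and oxidized prostaglandins and also inactivates leukotriene B4, had log2 values of 7.70, 7.32 and 7.69 on H2AX KO arrays, against 8.02, 8.01 and 8.20 on WT arrays. H2AX KO replicate 2 was the lowest of all arrays, and the other H2AX KO arrays were also below each WT array. Ptgr1 had a log2 difference of -0.51 ± 0.11 (SE; limma, adjusted p = 0.0046), or 1.42-fold lower. Cbr3, a cytosolic carbonyl reductase that uses NADPH, had log2 values of 5.90, 5.55 and 5.74 on H2AX KO arrays, against 5.41, 5.28 and 5.22 on WT arrays. The gap between the nearest arrays of the genotypes was small. This gave a log2 difference of 0.42 ± 0.09 (SE; limma, adjusted p = 0.0061), or 1.34-fold higher. Cbr3 was below the median gene mean of 6.39 in both genotypes, with 36.5% of genes at a lower mean. Under the one-way analysis of variance named in the methods, in which a gene has only its own variance, neither Ptgr1 (adjusted p = 0.077) nor Cbr3 (adjusted p = 0.075) passed.

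Ephx1, the microsomal epoxide hydrolase, had log2 values of 7.61, 7.35 and 7.58 on H2AX KO arrays, against 7.03, 7.09 and 7.16 on WT arrays. All H2AX KO arrays were above all WT arrays, again with H2AX KO replicate 2 the lowest of its group. Its log2 difference was 0.42 ± 0.08 (SE; limma, adjusted p = 0.0030), or 1.34-fold higher. H2AX KO replicate 2 had the lowest value of the H2AX KO arrays for 6 of the 9 enzymes and for 41.1% of all genes.

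**Figure D2:**
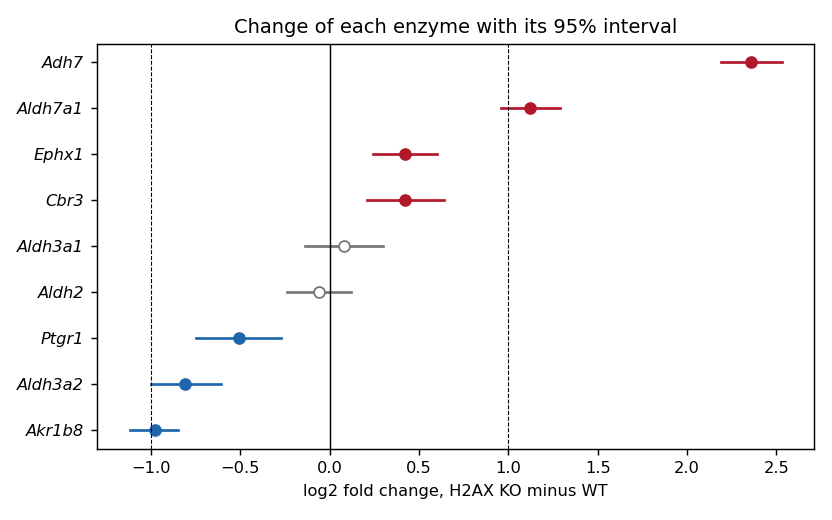
Log2 fold change of H2AX KO minus WT (x axis) for each enzyme, with points for the estimate and bars for the 95% interval by limma, red for higher, blue for lower and open for not passing an adjusted p under 0.05. Dashed lines mark a 2-fold change. The estimates run from 2.36 for Adh7 to -0.98 for Akr1b8, and the bars of Aldh3a1 and Aldh2 cross 0.

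Several of the enzymes have relatives near them on their chromosome. Adh7 lies on chromosome 3 beside the liver alcohol dehydrogenase gene Adh1 and its relatives Adh6a and Adh6b, whose log2 differences were -0.11, -0.05 and 0.04 (adjusted p = 0.33, 0.64 and 0.73 by limma). All 3 were low on the array scale, with means of 5.09, 4.30 and 5.11 in H2AX KO cells and of 5.20, 4.36 and 5.07 in WT cells, near the 25th percentile of gene means at 4.98, so that a change in them may not have been detectable. On chromosome 6 the order is Akr1b3, Akr1b8, Akr1b10 and Akr1b7. Akr1b10 had log2 values of 7.70, 7.28 and 7.52 on H2AX KO arrays, against 9.22, 9.28 and 9.18 on WT arrays, a log2 difference of -1.73 ± 0.10 (SE; limma, adjusted p = 7e-07) or 3.31-fold lower. Slc35b4, a nucleotide sugar transporter gene and the nearest measured gene on the other side of Akr1b8, was also lower, at a log2 difference of -0.77 (adjusted p = 0.00036). Akr1b genes are alike in sequence, and how far the probes of one read RNA of another was not tested.

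On chromosome 11 Aldh3a1 and Aldh3a2 are next to each other, with log2 differences of 0.08 and -0.81 as given above. On chromosome 16 Cbr1, the commonest cytosolic carbonyl reductase, lies close to Cbr3 and had a log2 difference of 0.17 (limma, adjusted p = 0.14), which passed the test without H2AX KO replicate 2 (0.24, adjusted p = 0.025). The log2 difference between 2 neighbours within an array was taken for 5 pairs, of which 3 set Adh7 or Aldh3a2 against a relative low on the array scale (Adh1, Adh6a or Aldh3a1) and are not read further. Akr1b8 minus Akr1b10 was 1.94 ± 0.22 (SD, n = 3) on H2AX KO arrays and 1.19 ± 0.08 (SD, n = 3) on WT arrays, and Cbr3 minus Cbr1 was -1.53 ± 0.07 (SD, n = 3) on H2AX KO arrays and -1.79 ± 0.17 (SD, n = 3) on WT arrays. In both pairs the arrays of the genotypes did not overlap, with a two-sided exact permutation p = 0.10 before and after adjustment over the 5 pairs, the smallest this design allows.

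The nearest measured genes beside the other enzymes were mixed in direction. Aldh7a1 was higher, whereas its neighbour Gramd3 was lower (log2 difference -0.40; limma, adjusted p = 0.0015) and Phax on the other side was at -0.12 (adjusted p = 0.30). Aldh2 did not pass, whereas Acad12 beside it was higher (0.47, adjusted p = 0.00068), as was Mapkapk5 (0.18, adjusted p = 0.044), whose call was lost under 7 of 14 alternatives, among them without WT replicate 1, 2 or 3 (adjusted p = 0.073, 0.13 and 0.082) and without H2AX KO replicate 1 or 3 (0.13 and 0.11). Near Ephx1, which was higher, Tmem63a was lower (-0.33, adjusted p = 0.016), but missed the threshold without H2AX KO replicate 1 or 3 (adjusted p = 0.053 and 0.063) or WT replicate 2 or 3 (0.065 and 0.057), at log2 differences of -0.31 to -0.26, and under the analysis of variance (0.099). The neighbour on the other side, 9130409I23Rik, was at -0.16 (adjusted p = 0.26), which passed without H2AX KO replicate 2 (-0.28, adjusted p = 0.011). Beside Ptgr1, which was lower, Zkscan16 was at 0.07 (adjusted p = 0.39) and Dnajc25 at -0.11 (adjusted p = 0.23). Slc47a2, next to Aldh3a2, was at 0.07 (adjusted p = 0.48), and Usp22, on the far side of Aldh3a1, was higher (0.50, adjusted p = 0.0044) except under the analysis of variance (adjusted p = 0.074). On the side of Adh7 away from Adh1, 4930579F01Rik was at 0.04 (adjusted p = 0.73). Dop1b, near Cbr3, was higher by the same log2 difference of 0.42 (adjusted p = 0.00051).

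**Figure D3:**
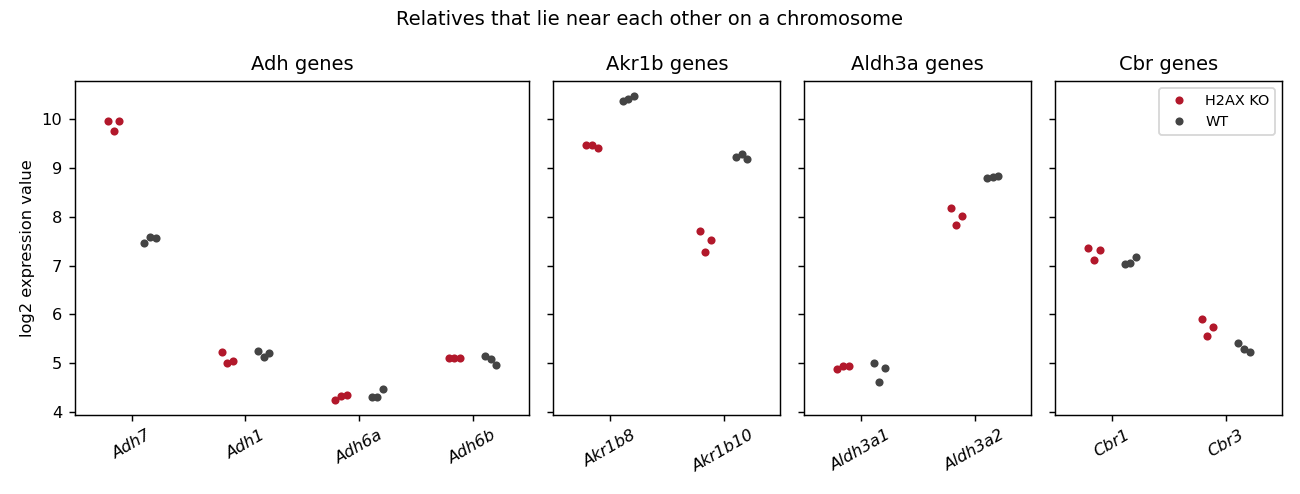
Log2 expression value (y axis) of members and their chromosomal relatives on 3 H2AX KO arrays (red, left of each gene) and 3 WT arrays (grey, right). Adh7 and both Akr1b genes are apart between genotypes whereas Adh1, Adh6a and Adh6b, which lie low on the scale, overlap, and heights of different genes are not a comparison of abundance because each has its own probes.

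Other genes of aldehyde and carbonyl metabolism were taken as a chosen and incomplete list of 57, of which 56 were measured. In H2AX KO cells 10 rose, 11 fell and 35 did not pass, or 37.5% called, close to the 33.4% of all genes. Their median log2 difference was 0.02, the same as that of all genes. Without H2AX KO replicate 2, 15 of them were higher and 11 lower, against 3949 and 2877 of all genes. The share of the list that was called thus rose without this array, more than that of all genes did.

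Of 17 other aldehyde dehydrogenases, 6 were higher and 3 were lower, or 52.9% called, against 33.4% of all genes. Of those not called, Aldh1a1, Aldh1a2, Aldh1a7 and Aldh1l1 had means under the 25th percentile of gene means, 4.98, in both genotypes. For these 4 genes a change may not have been detectable. Aldh1l2, the mitochondrial formyltetrahydrofolate dehydrogenase, had a mean of 10.28 ± 0.10 (SD, n = 3) on H2AX KO arrays, against a mean of 8.91 ± 0.10 (SD, n = 3) on WT arrays, or a log2 difference of 1.37 (limma, adjusted p = 6.1e-07). Aldh18a1, which makes the precursor of proline and is a dehydrogenase of this family by sequence, followed with a log2 difference of 0.79 (adjusted p = 4.6e-06). The falls were led by Aldh3b1, which oxidizes medium and long chain aldehydes, with a log2 difference of -1.03 (adjusted p = 0.00015), and by Aldh9a1, which acts on aminoaldehydes, at -0.48 (adjusted p = 0.0022).

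Of 14 other aldo-keto reductases, 1 was higher, 2 were lower and 11 did not pass. Of these 11, Akr1c6, Akr1c12, Akr1c13, Akr1c19, Akr1c20, Akr1c21, Akr1cl and Akr1d1 had means under the 25th percentile of gene means, 4.98, in both genotypes. A change in them may not have been detectable. Akr1c14, a hydroxysteroid dehydrogenase, had log2 values of 8.62, 8.08 and 8.42 on H2AX KO arrays, against 5.54, 5.54 and 5.60 on WT arrays. This was a log2 difference of 2.81 ± 0.12 (SE; limma, adjusted p = 7.9e-08), or 7.03-fold higher. Akr1c18, which inactivates progesterone, had a log2 difference of -1.10 (adjusted p = 0.00037), and the third was Akr1b10 above. How far the probes of one Akr1c gene read RNA of another was not tested. Among 6 other alcohol dehydrogenases, Adhfe1, a mitochondrial hydroxyacid oxidoreductase, was the only one to pass, with a log2 difference of -0.97 (adjusted p = 3.3e-06).

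Of 6 other carbonyl reductases, 2 were higher and 2 were lower. Cbr2, a mitochondrial carbonyl reductase abundant in mouse lung, had log2 values of 10.07, 10.10 and 10.16 on H2AX KO arrays, against 7.25, 7.51 and 7.36 on WT arrays. The log2 difference was 2.74 ± 0.08 (SE; limma, adjusted p = 5.7e-09), or 6.67-fold higher, so that Cbr2, like Adh7 and Akr1c14, stood far apart between genotypes. Cbr4 had a log2 difference of 0.52 (adjusted p = 0.023), which did not pass without H2AX KO replicate 1 or 3 or WT replicate 1 (adjusted p = 0.072, 0.089 and 0.088) or under the analysis of variance (adjusted p = 0.17). Dhrs4 and Dcxr, both reductases of dicarbonyl compounds, had log2 differences of -0.47 (adjusted p = 0.00052) and -0.30 (adjusted p = 0.018), of which that of Dcxr did not pass without WT replicate 3 (adjusted p = 0.064) or under the analysis of variance (adjusted p = 0.093).

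Of the 3 other epoxide hydrolases, Ephx2, Ephx3 and Ephx4, none passed by limma (unadjusted p = 0.19, 0.21 and 0.30), and their difference in change from Ephx1 was not tested. Their means were 4.30, 4.73 and 4.21 in H2AX KO cells and 4.21, 4.83 and 4.14 in WT cells. All were under the 25th percentile of gene means at 4.98, so that a change in them may not have been detectable. Of 6 relatives of Ptgr1, Zadh2 and Vat1 were lower, with log2 differences of -0.55 (adjusted p = 0.00017) and -0.37 (adjusted p = 0.0033), and Mecr, an enzyme of mitochondrial fatty acid synthesis, was higher at 0.35 (adjusted p = 0.0038). Of 4 genes of the glyoxalase system, which removes methylglyoxal, Glo1 was lower with a log2 difference of -0.30 (adjusted p = 0.031). It did not pass without H2AX KO replicate 2 or 3 or WT replicate 2 or 3 (adjusted p between 0.07 and 0.11), after median centring (adjusted p = 0.069) or under the analysis of variance (adjusted p = 0.14), and a second probe set for Glo1 gave a log2 difference of -0.29.

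**Figure D4:**
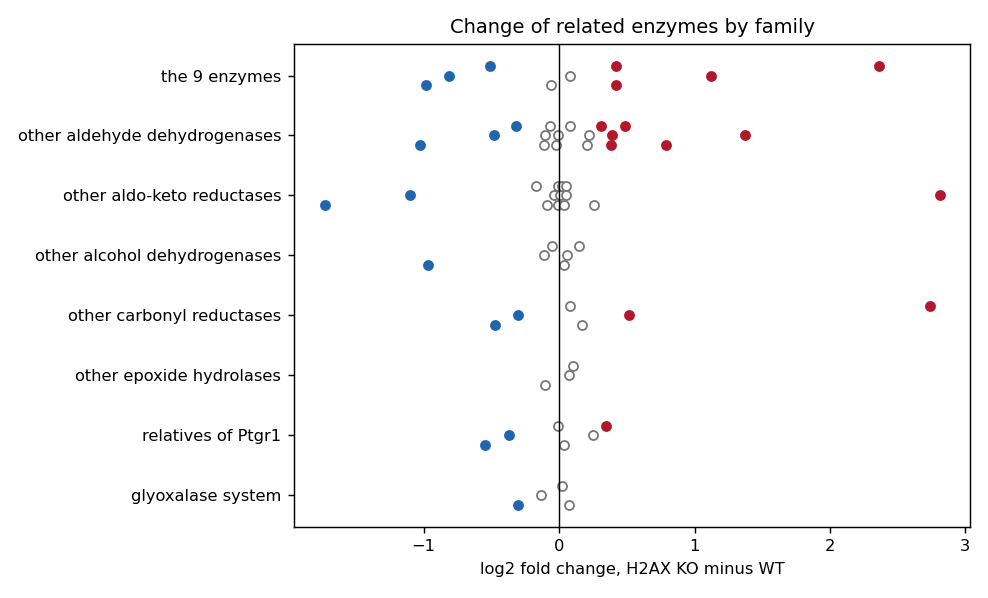
Log2 fold change of H2AX KO minus WT (x axis) for the 9 enzymes and for 7 lists of related genes, 1 point per gene with a vertical offset for legibility, red for higher, blue for lower and open for not passing an adjusted p under 0.05 by limma. Calls lie on both sides of 0 in the aldehyde dehydrogenases, aldo-keto reductases and carbonyl reductases, with Akr1c14 at 2.81 and Cbr2 at 2.74 furthest to the right.

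Nfe2l2, which encodes NRF2, and its target Nqo1 were lower in the same cells, with log2 values of 10.43, 10.05 and 10.26 for Nfe2l2 on H2AX KO arrays, against 11.46, 11.53 and 11.57 on WT arrays. The log2 differences were -1.27 for Nfe2l2 (limma, adjusted p = 4.1e-06) and -1.40 for Nqo1 (adjusted p = 6.4e-07). Akr1b8, Ptgr1 and Aldh3a2 were lower alongside them, while Adh7, Aldh7a1, Ephx1 and Cbr3 were higher, and Aldh2 and Aldh3a1 did not pass the test. Aox1, the aldehyde oxidase, which also removes aldehydes but with molecular oxygen, had a log2 difference of -2.35 (limma, adjusted p = 1.1e-07).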

How the data were processed

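RNA of H2AX KO and WT fibroblasts was hybridized to Affymetrix Mouse Gene ST arrays, 3 for each genotype. Expression Console gave the authors their CHP files, and Partek (6.6 in the submitters' processing notes) the normalization. What was deposited is a log2 value for each of 35556 probe sets, whose median per array was 6.06 to 6.12. How background was corrected and probes summarized is not stated in these sources.

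Of these, 21789 probe sets carried 1 gene symbol in the annotation of the 1.0 ST array, to which the identifiers belong although the methods name version 2.0. Symbols were updated through gene identifiers of RefSeq (GRCm38.p6), which also gave gene order. The probe set with the highest mean represented a gene, which gave 19938 genes, without a filter on low values.

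Genotypes were compared with limma (version 3.58.1, R 4.3.3; lmFit and eBayes) on genotype alone, and p-values were adjusted by Benjamini and Hochberg across the 19938 genes. The test was checked on simulated data. Alternatives were a replicate block, leaving out each array, the methods' one-way analysis of variance, another variance prior, quantile normalization, median centring, a filter on low means, and other uses of several probe sets. Named genes were all members, the 2 largest rises and falls past the test in each related list, nearest measured neighbours, and context genes; other names were added after values were seen. Members and lists were chosen with earlier results of these data known. No array was a copy of another (at most 0.0872% identical values within a genotype).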

Additional observations from a re-analysis of the deposited data

How the results depend on the processing

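The counts of enzymes called (4 higher and 3 lower) were 4 and 3 without each array in turn, with a replicate block, with the other variance prior, after quantile normalization or median centring, and with other uses of several probe sets. They were 3 higher and 2 lower under the one-way analysis of variance, in which Cbr3 and Ptgr1 were lost, and 3 higher and 3 lower after dropping the dimmer 50% of genes, among them Cbr3 and Aldh3a1. Over all genes, 3676 were higher and 2990 lower, with 2860 to 3949 higher and 2374 to 2925 lower when an array was left out, and 2544 and 2165 under the analysis of variance. Among the genes kept after dropping the dimmer 50%, 3095 were higher and 2399 lower. The 56 related genes gave 9 to 15 higher and 9 to 11 lower without an array. Of 646 values for named genes under alternatives, 612 kept direction and side of the threshold, 27 lost the call, 3 gained it and 4 turned sign, none of the 4 a called value. Without 1 array, Aldh2 ranged from -0.14 to 0.01, Aldh3a1 from -0.03 to 0.17 and 4930579F01Rik, a neighbour of Adh7, from -0.0012 to 0.06, and Keap1 was 0.01 after median centring (log2 fold changes). Deviations from the genotype mean of same-numbered arrays correlated at -0.29, -0.24 and 0.08. H2AX KO replicates 1 and 2 each correlated best with a WT array of another number (0.23 and 0.32). H2AX KO replicate 3 stood at 0.08 with both WT replicate 2 and WT replicate 3. Deviations from a mean of 3 arrays depend on each other, so these values cannot decide whether replicate numbers pair the arrays. With the replicate block 3170 genes were higher and 2640 lower, and Adh7 had an adjusted p of 1e-06, with no call of an enzyme changed. Precision is limited by 3 arrays a genotype.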
